A study of Mus musculus with 6 samples.

Results

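The 10 genes described here encode transcription factors that set up, maintain or modify the melanocyte lineage: Mitf, Sox10, Pax3, Tfap2a, Lef1, Sox5, Sox9, Sox4, Irf4 and Pou3f2. They were chosen by name, and the rows that carry these names in the deposited expression table were summed per gene identifier. All 10 were found among 21801 genes, as 34 of 59192 transcripts. The cells were B16F10-OVA, a pigmented mouse melanoma line that expresses ovalbumin, so every library carries that transgene. 3 libraries came from untreated cells. The other 3 came from cells given 50 µM Ac4ManNAz, an acetylated azido sugar that cells convert to azide-bearing sialic acid, from day 0 until RNA was isolated on day 5, with a passage on day 3. The study asked whether this metabolic labelling disturbs the transcriptome. The labels describe the control cells as untreated, with no vehicle named, and do not say whether replicates were separate cultures. The p-values therefore rest on library-to-library spread alone, part or all of which may be technical.

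MITF is a basic helix-loop-helix leucine zipper protein that binds E-box sequences upstream of pigment, survival and cell cycle genes, and it is often called the master regulator of melanocytes. SOX10 and PAX3 activate the promoter of its melanocyte form. LEF1 does so at the end of the WNT pathway, and CREB does so when the MSH receptor raises cAMP. Loss or gain of these factors in melanoma is known to accompany shifts between a pigmented state and a less differentiated, more invasive one, in which factors such as POU3F2 (also called BRN2) and SOX9 have been described.

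The sequences that bear on the results are the start regions of Mitf, because its transcripts begin at several places, and those of its pigment targets Tyr and Tyrp1. Each is a 300-base RefSeq window of the GRCm38.p6 build, with 250 bases before the annotated start and 50 from it onward, written along the strand of the gene. The first Mitf window lies at chr6:97806808-97807107 on the plus strand and its start site is that of transcript Mitf-202. The second lies at chr6:97991533-97991832 on the plus strand, and its start site is 9 bases from that of Mitf-201, the melanocyte (M) form. The Tyr window is chr7:87493463-87493762 on the minus strand and the Tyrp1 window chr4:80833963-80834262 on the plus strand. Capitals mark matches on either strand to CATGTG (the E-box form bound by MITF at pigment genes), CACGTG (the general E-box), CTTTGAT (the LEF1/TCF motif), TGACGTCA (the cAMP response element) and ACAAAG or ACAATG (SOX motifs).
Mitf, start of Mitf-202: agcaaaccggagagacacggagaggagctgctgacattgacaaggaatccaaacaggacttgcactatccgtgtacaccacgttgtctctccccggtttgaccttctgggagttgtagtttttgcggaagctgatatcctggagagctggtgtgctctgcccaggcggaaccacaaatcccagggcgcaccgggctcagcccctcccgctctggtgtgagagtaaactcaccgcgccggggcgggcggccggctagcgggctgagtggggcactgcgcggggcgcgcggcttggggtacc
Mitf, start of the M form: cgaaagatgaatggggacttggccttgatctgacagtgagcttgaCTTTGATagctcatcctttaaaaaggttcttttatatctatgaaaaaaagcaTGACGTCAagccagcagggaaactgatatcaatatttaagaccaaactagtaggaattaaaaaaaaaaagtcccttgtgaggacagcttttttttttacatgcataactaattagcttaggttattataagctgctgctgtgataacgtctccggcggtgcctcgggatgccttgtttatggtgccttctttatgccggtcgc
Tyr: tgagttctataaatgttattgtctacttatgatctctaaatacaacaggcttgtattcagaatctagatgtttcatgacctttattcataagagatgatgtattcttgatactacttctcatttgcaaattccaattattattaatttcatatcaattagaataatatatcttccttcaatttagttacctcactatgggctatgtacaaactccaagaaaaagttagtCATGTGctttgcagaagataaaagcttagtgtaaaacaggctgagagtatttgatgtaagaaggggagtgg
Tyrp1: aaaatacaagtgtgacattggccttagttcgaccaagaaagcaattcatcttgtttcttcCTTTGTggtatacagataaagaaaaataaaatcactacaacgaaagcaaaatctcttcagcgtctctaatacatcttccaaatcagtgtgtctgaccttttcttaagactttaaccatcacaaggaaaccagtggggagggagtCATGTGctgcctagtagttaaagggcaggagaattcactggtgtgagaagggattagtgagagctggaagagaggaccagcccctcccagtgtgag

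The M-form window of Mitf held CTTTGAT at position -205 and TGACGTCA at -153 relative to its start site, and no E-box or SOX match. None of the motifs was found in the window at the Mitf-202 start, nor in another Mitf window at chr6:97929567-97929866. Among 32817 mouse windows of this length, 3.73% held CTTTGAT and 1.79% held TGACGTCA. The E-box CATGTG stood at -21 in the Tyr window and at -46 in the Tyrp1 window, and it was present in 14.2% of all windows. The Tyrp1 window also held a SOX match at -190, as did 28.6% of all windows. Windows were matched for 7 of the 10 factors, 13 windows in all. Beyond those of Mitf, matches were 1 SOX motif for Sox5, 1 LEF1/TCF motif for Pou3f2, and 1 CACGTG and 2 SOX motifs in 1 of the 4 Lef1 windows. The windows of Sox4, Irf4 and Tfap2a held none. Only the Mitf windows were compared with listed transcript starts. The other windows, those of Sox5 and Lef1 included, need not lie at the starts of the transcripts that carry the FPKM. A match describes letters in a window and does not show that a factor binds there.

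The RNA matched a melanocytic cell. All 8 melanocyte markers listed for the check (Pmel, Tyr, Tyrp1, Dct, Mlana, Slc45a2, Gpr143 and Slc24a5) had means of at least 1 FPKM, a fragment level scaled for transcript length and library depth. Their summed level was 8218 to 9854 FPKM in untreated cells and 7884 to 9802 FPKM after Ac4ManNAz. None of 8 keratinocyte markers reached 1 FPKM. Of 8 Schwann cell and glia markers, 4 reached it, Cdh19 and S100b among them, and the list summed to 94.1 to 118 FPKM in untreated cells and 109 to 142 FPKM after Ac4ManNAz. Fibroblast markers reached it in 2 of 8 (Col1a2 and Fbln1), leukocyte and B cell markers in 2 of 9 (Cd68 and Lyz2) and endothelial markers in 1 of 7 (Vwf). The fibroblast list summed to 29.8 to 46.2 FPKM in untreated cells and 37.8 to 50.9 FPKM after Ac4ManNAz. The leukocyte and B cell list summed to at most 5.55 FPKM and the endothelial list to at most 3.02 FPKM. The libraries listed 13912 to 18974 genes above 0. The table holds no fragment counts, so the depth behind each value is not known.

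Levels of the 10 factors spanned more than 4 orders of magnitude and fell in the same broad order in both groups. Mitf stood highest, ahead of Sox10, then Pax3 and Sox4, then Sox5 and Tfap2a. Sox9 and Pou3f2 were well under 1 FPKM, and Irf4 and Lef1 were at or near 0. The ranges over the 6 libraries overlapped for Pax3 and Sox4, for Sox9 and Pou3f2, and for Irf4 and Lef1, and all other neighbours were apart. Pax3 was above Sox4 in each of the 6 libraries, whereas the order within the other pairs changed between libraries. In bulk RNA, a lower share of expressing cells and less RNA per cell cannot be told apart.

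**Figure D1:**
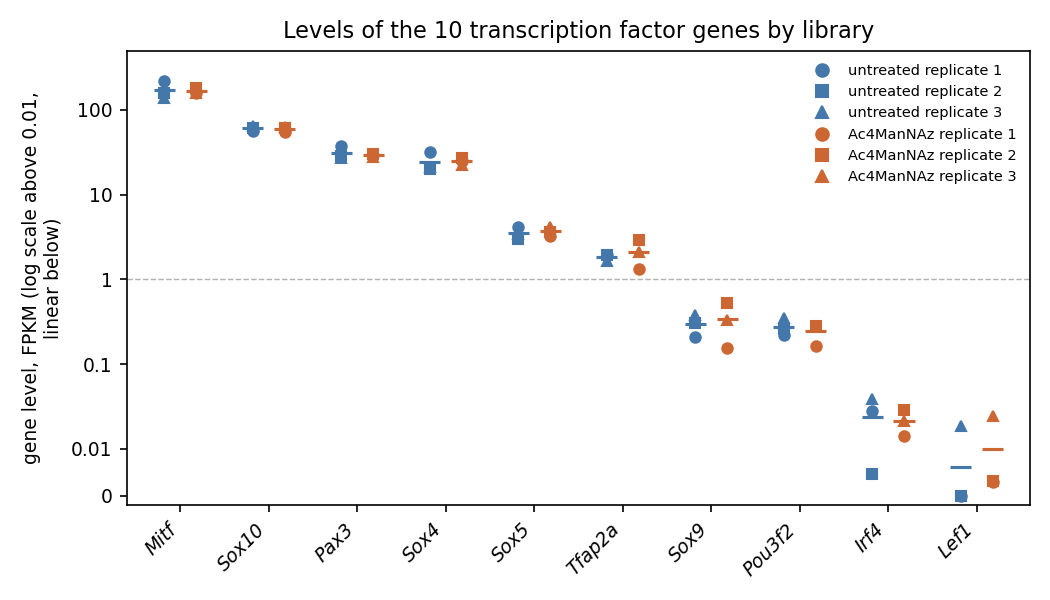
Gene level in FPKM of each of the 10 factors in the 6 libraries, on an axis that is logarithmic above 0.01 and linear below; points are libraries, short bars are group means and the dashed line marks the 1 FPKM needed for testing. Mitf lies between 137 and 223 FPKM, 4 factors lie below the line, and the untreated and treated points overlap for every factor.

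Mitf (ENSMUSG00000035158, chromosome 6, 97784013 to 97998310 in the deposited coordinates, whose build is not given in the sources used here) stood at 223, 157 and 137 FPKM in untreated replicates 1 to 3, against 157, 184 and 160 FPKM in treated replicates 1 to 3. Untreated replicate 1 was the highest library and the treated values lay inside the untreated range. Over the 6 libraries the level ranked 292 of 21801 genes, with 98.7% of genes below it. The difference, treated minus untreated on the log2(FPKM + 1) scale, was -0.02 ± 0.18 (SE, n = 3 and 3; 95% interval -0.45 to 0.42; adjusted p = 0.9998 by limma over all genes).

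Sox10 (ENSMUSG00000033006, chromosome 15, 79039108 to 79049440), the SOXE factor that is kept from the neural crest into melanocytes and glia, stood at 56.6, 60.8 and 64.3 FPKM in untreated cells and 55.3, 61.8 and 63.2 FPKM after Ac4ManNAz. The groups overlapped almost entirely, and the highest library stood 1.16-fold above the lowest. The difference was -0.01 ± 0.10 on the log2 scale (SE, n = 3 and 3; 95% interval -0.25 to 0.23). This was the narrowest interval of the factors tested. The within-group SD was 0.096 on the log2 scale, and 11.7% of the tested genes had a smaller SD.

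Pax3 (ENSMUSG00000004872, chromosome 1, 78077904 to 78173771) encodes the paired-box factor of neural crest and melanocyte precursors. Its level was 38.1, 28.6 and 26.8 FPKM in untreated cells and 29.2, 29.9 and 28.0 FPKM after Ac4ManNAz. Untreated replicate 1 was again the highest, and the treated values lay inside the untreated range. The difference was -0.08 ± 0.14 on the log2 scale (SE, n = 3 and 3; 95% interval -0.42 to 0.26).

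Sox4 (ENSMUSG00000076431, chromosome 13, 29132902 to 29137696) is a SOXC gene with a single exon and 1 listed transcript. It stood at 32.0, 19.9 and 21.1 FPKM in untreated cells and 24.9, 27.4 and 22.2 FPKM after Ac4ManNAz, again highest in untreated replicate 1, with overlapping groups. The difference was 0.06 ± 0.19 on the log2 scale (SE, n = 3 and 3; 95% interval -0.39 to 0.51). Its paralog Sox11 had a mean level of 15.5 FPKM, whereas Sox12, also a SOXC gene, stood at 0 to 0.0662 FPKM.

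Sox5 (ENSMUSG00000041540, chromosome 6, 143774151 to 144155294) encodes a SOXD factor that lacks an activation domain of its own and has been described in the mouse as a modulator of SOX10 activity in melanocytes. Levels were 4.18, 3.04 and 3.41 FPKM in untreated cells and 3.25, 3.61 and 4.21 FPKM after Ac4ManNAz, with overlapping groups and a difference of 0.05 ± 0.16 on the log2 scale (SE, n = 3 and 3; 95% interval -0.33 to 0.42). Its close relative Sox6 stood higher, at a mean of 9.11 FPKM, and the third SOXD gene, Sox13, stood at 0 to 0.0632 FPKM.

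Tfap2a (ENSMUSG00000021359, chromosome 13, 40868778 to 40891852), the AP-2 factor that acts beside MITF at pigment genes, was the lowest factor to reach 1 FPKM. It stood at 1.95, 1.94 and 1.66 FPKM in untreated cells against 1.33, 2.92 and 2.12 FPKM after Ac4ManNAz. The treated libraries held both the lowest and the highest value. The difference was 0.10 ± 0.21 on the log2 scale (SE, n = 3 and 3; 95% interval -0.40 to 0.60). The other AP-2 genes Tfap2b, Tfap2c, Tfap2d and Tfap2e had mean levels of 0.0183, 0.00697, 0.0111 and 0.00307 FPKM.

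The remaining 4 factors had mean levels under 1 FPKM and were not tested. Sox9 (ENSMUSG00000000567, chromosome 11, 112673050 to 112678586), a SOXE relative of Sox10, stood at 0.210, 0.303 and 0.384 FPKM in untreated cells and 0.157, 0.530 and 0.330 FPKM after Ac4ManNAz. Sox10 was thus 117 to 353 times the level of Sox9, per length, depending on the library. Pou3f2 (ENSMUSG00000095139, chromosome 4, 22482780 to 22488366), the POU factor linked to invasive melanoma states, stood at 0.222, 0.263 and 0.347 FPKM in untreated cells and 0.166, 0.282 and 0.282 FPKM after Ac4ManNAz. Mitf was 397 to 1002 times its level. The treated and untreated libraries overlapped for both genes.

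Irf4 (ENSMUSG00000021356, chromosome 13, 30933209 to 30950959), which cooperates with MITF at the tyrosinase gene, stood at 0.0281, 0.00461 and 0.0383 FPKM in untreated cells and 0.0141, 0.0292 and 0.0216 FPKM after Ac4ManNAz. Lef1 (ENSMUSG00000027985, chromosome 3, 130904120 to 131018005), the nuclear partner of beta-catenin, was listed at 0 in untreated replicates 1 and 2 and at 0.0187 FPKM in replicate 3. Its treated libraries were listed at 0.00290, 0.00307 and 0.0242 FPKM. No fold change is given for genes at this level. A low listed value need not mean that the RNA is absent: Gapdh, a glycolysis gene used by all cells, was listed at 0.135 to 10.4 FPKM. Actb, another common gene, was listed at 798 to 1100 FPKM. Whether the listing of Irf4 or Lef1 is low in the way that of Gapdh is was not tested. The factors related to LEF1, Tcf7, Tcf7l1 and Tcf7l2, had mean levels of 0.278, 0.566 and 0.439 FPKM, whereas Ctnnb1, which encodes beta-catenin, stood at 367 FPKM.

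None of the 6 tested factors passed the threshold of an adjusted p of 0.05, where the share of all 9925 tested genes that did so was 0% as well (percent called 0). At an unadjusted p under 0.05 there were 177 genes in the whole table and 0 among the factors, whose lowest unadjusted p was 0.589 by limma. The treated and untreated libraries overlapped for all 6 factors; over all tested genes the groups did not overlap for 5.8%. All 6 had a 95% interval within 2-fold, as did 91% of tested genes. The differences were positive for 3 factors and negative for 3, with a median of 0.02 against -0.00 over all genes, and a median size of 0.05 against 0.10. These counts lie near the background, so they describe the factors without setting them apart from other genes.

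**Figure D2:**
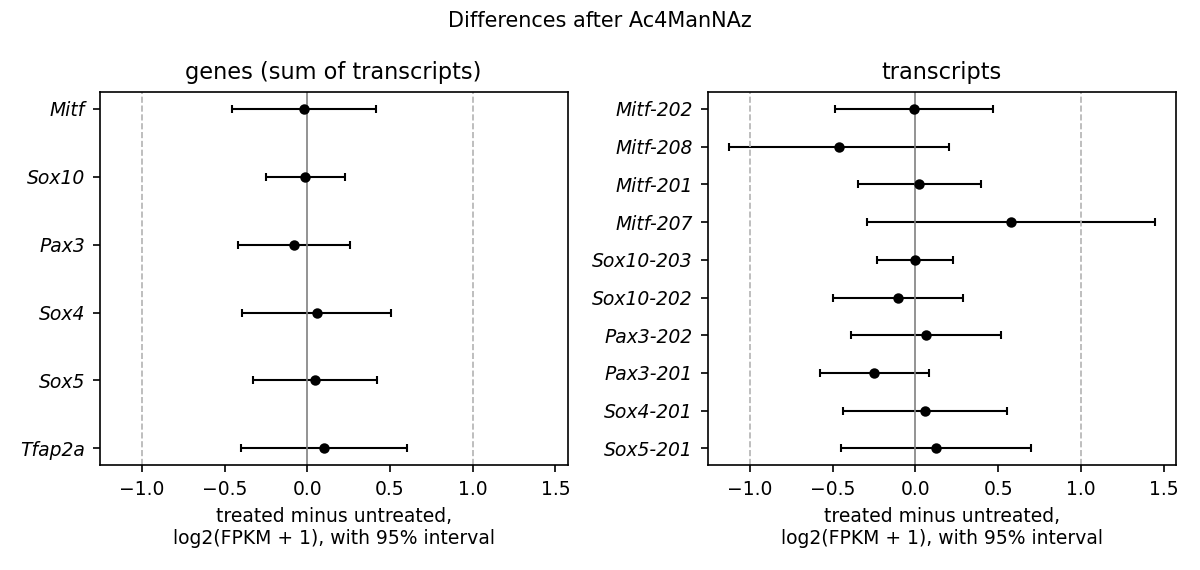
Treated minus untreated difference on the log2(FPKM + 1) scale for the 6 tested genes (left) and the 10 tested transcripts (right); points are differences, bars are 95% intervals from limma and dashed lines mark 2-fold. Every interval includes 0, and those of Mitf-208 and Mitf-207 reach beyond 2-fold.

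The factors did not share a common profile over the 6 libraries. Untreated replicate 1 was the highest library for Mitf, Pax3 and Sox4, that is for 3 of 6 tested factors, and for 28.4% of all tested genes. Against the median of the other 5 libraries it stood at 1.41 times for Mitf, 1.33 times for Pax3 and 1.44 times for Sox4. Sox10 was at 0.915 times there. The median over all tested genes was 1.07 times, and 28.8% of them were at 1.2 times or more.

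Ratios between factors followed from these profiles. The ratio of Mitf to Pax3, per length, stayed between 5.13 and 6.15 in all 6 libraries. The ratio of Mitf to Sox10 was 3.93, 2.59 and 2.14 in untreated and 2.84, 2.97 and 2.54 in treated libraries. Untreated replicate 1 was the highest of these and untreated replicate 3 the lowest, and the treated ratios lay between them. Without untreated replicate 1 the log2 difference of Mitf was 0.18 instead of -0.02 and that of Pax3 0.07 instead of -0.08, with adjusted p of 0.921 and 0.940 by limma.

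Mitf was represented by 6 transcripts that differ in their starts, in their 3′ ends and in a short coding segment. In Mitf-208 the second exon is also shorter, ending 186134 bases from the first Mitf start against 186302 in Mitf-201. Mitf-202, which begins at the most upstream start region, stood at 200, 141 and 124 FPKM in untreated cells and 141, 169 and 145 FPKM after Ac4ManNAz. It held 90.0% ± 0.2 of the gene's FPKM in untreated cells and 90.7% ± 0.9 in treated libraries (SD, n = 3 each; exact two-sided permutation p = 0.2). The M-form transcripts came next. Mitf-208 stood at 14.9, 9.68 and 7.81 FPKM in untreated cells and 9.35, 7.07 and 5.84 FPKM after Ac4ManNAz, with overlapping groups. Its difference of -0.46 ± 0.27 on the log2 scale (SE, n = 3 and 3; 95% interval -1.13 to 0.20; adjusted p = 0.9998 by limma) did not pass. Mitf-201 stood at 5.55, 5.13 and 4.54 FPKM in untreated cells and 5.11, 4.52 and 5.92 FPKM after Ac4ManNAz, a difference of 0.02 on the log2 scale.

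Mitf-207 shares the upstream start region and lacks the short segment. It stood at 1.74, 1.32 and 1.15 FPKM in untreated cells and 1.12, 3.51 and 3.74 FPKM after Ac4ManNAz. Treated replicates 2 and 3 were the highest and treated replicate 1 the lowest of the 6. The log2 difference was 0.95 without treated replicate 1 and 0.37 without treated replicate 3. With all 6 libraries, the difference of 0.58 ± 0.35 on the log2 scale (SE, n = 3 and 3; 95% interval -0.30 to 1.45; adjusted p = 0.9998 by limma) did not pass. Mitf-204 reached at most 0.121 FPKM and Mitf-203 at most 0.0118 FPKM.

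**Figure D3:**
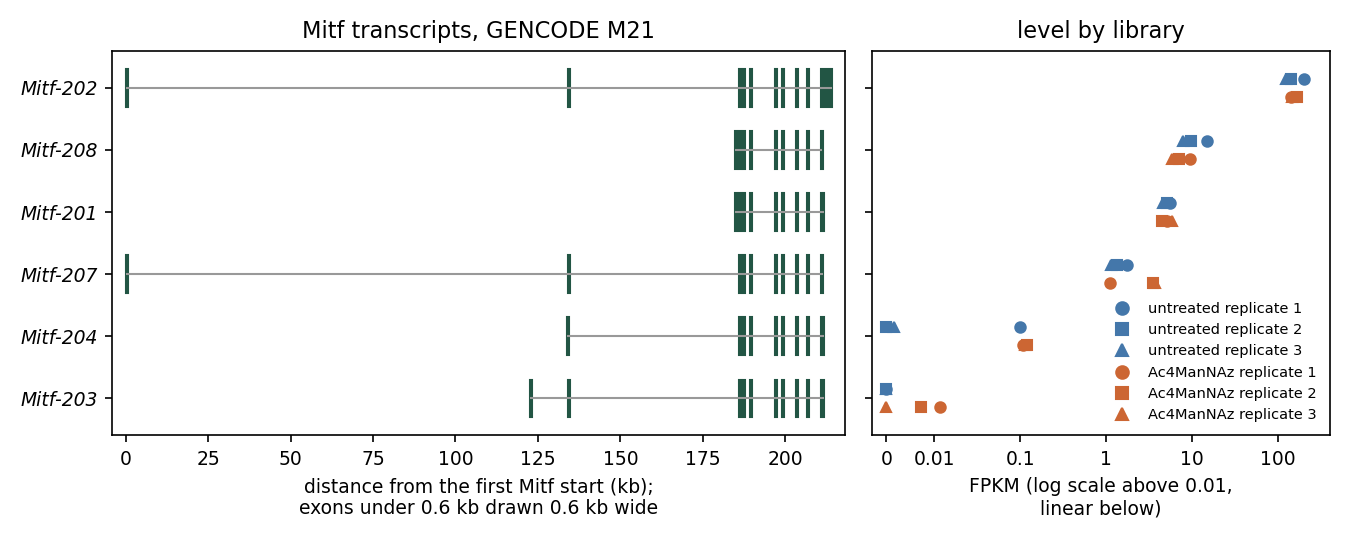
Left, exons of the 6 Mitf transcripts in GENCODE M21 by distance in kb from the first Mitf start; right, FPKM of each transcript in the 6 libraries, logarithmic above 0.01 and linear below. Mitf-202 is the highest in every library and is the only transcript with the long last exon.

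Grouped by start, a grouping chosen after the values were seen and given without a test, the upstream start region held 90.6% to 93.6% of Mitf FPKM. The M-form start held 9.19%, 9.41% and 8.98% in untreated and 9.21%, 6.31% and 7.33% in treated libraries. The M-form start lies 184734 bases downstream of the Mitf-202 start. The transcript models limit what these shares say about starts. Mitf-202 runs 2642 bases past the end of every other listed Mitf transcript, which is 54.1% of its length, and only 480 of its bases, 9.83%, lie upstream of the M-form start. Mitf-201 shares 91.6% of its bases with Mitf-202. Fragments from the distal 3′ end can be assigned to Mitf-202 alone, and from these values the start such an RNA came from cannot be told apart.

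The short segment is an 18-base stretch of coding sequence at chr6:98006123-98006140 (GRCm38, plus strand). It lies upstream of the basic region that contacts DNA, and it separates the plus and minus forms of MITF. The transcript sequences around it are shown because they define those forms, with the segment in capitals between 15 flanking bases on each side.
Mitf-202: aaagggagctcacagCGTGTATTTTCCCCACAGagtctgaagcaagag
Mitf-207: aaagggagctcacagagtctgaagcaagag

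Transcripts with the segment (Mitf-201, Mitf-202, Mitf-203 and Mitf-204) held 93.0% ± 0.5 of Mitf FPKM in untreated cells and 93.9% ± 0.5 in treated libraries (SD, n = 3 each). Those without it (Mitf-207 and Mitf-208) held 7.48%, 6.99% and 6.52% in untreated and 6.67%, 5.76% and 5.97% in treated libraries. The groups overlapped at untreated replicate 3 and treated replicate 1. This grouping too was made after the values were seen and was not tested. Mitf-208 has 0 bases and Mitf-207 has 6 bases that lie in no other listed transcript. The exon that holds the segment begins 199071 bases from the first Mitf start in Mitf-202, and 199089 bases in Mitf-207 and Mitf-208. Fragments that cross that junction can separate the forms, but they are not counted here. For fragments in shared bases, the shares depend on how these were divided among overlapping transcripts. Mitf-208 also has the shorter second exon, so the shares do not single out the segment.

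Pax3 was divided almost evenly between its 2 transcripts. Pax3-202 stood at 20.4, 14.7 and 12.9 FPKM in untreated cells and 15.9, 18.2 and 15.5 FPKM after Ac4ManNAz. Pax3-201 stood at 17.6, 13.9 and 13.9 FPKM in untreated cells and 13.3, 11.7 and 12.5 FPKM after Ac4ManNAz, and all 3 treated values lay below all 3 untreated values. Its difference was -0.25 ± 0.13 on the log2 scale (SE, n = 3 and 3; 95% interval -0.58 to 0.08; adjusted p = 0.9998 by limma). Without untreated replicate 1 it was -0.14. Pax3-201 was the only one of the 10 tested transcripts of the factors with that order, which 3.72% of all tested transcripts had. The share of Pax3-202 was 53.6%, 51.5% and 48.0% in untreated and 54.3%, 60.8% and 55.3% in treated libraries, without overlap. The exact two-sided permutation p was 0.1, the smallest that 3 against 3 libraries can give, and 0.5 when adjusted over the 5 genes compared in this way. Without treated replicate 2 the difference in share was 3.77 instead of 5.76 percentage points, with an exact p of 0.2. The transcripts share 3075 bases, 788 are found only in Pax3-202 and 3 only in Pax3-201.

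Sox10 was read mainly from Sox10-203, at 50.8, 54.4 and 57.8 FPKM in untreated cells and 50.7, 55.5 and 56.7 FPKM after Ac4ManNAz. Its share was 89.8% ± 0.2 in untreated and 90.4% ± 1.1 in treated libraries (SD, n = 3 each; exact two-sided permutation p = 0.6). The shorter Sox10-202, whose 863 bases all lie within Sox10-203, made up nearly all of the rest, at 5.69, 6.36 and 6.41 FPKM in untreated cells and 4.54, 6.25 and 6.28 FPKM after Ac4ManNAz. Groups overlapped for both.

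Division among transcripts was least steady for the factors of low level. Sox5-201, the most abundant Sox5 transcript, stood at 1.18, 1.57 and 1.26 FPKM in untreated cells and 2.31, 1.15 and 1.30 FPKM after Ac4ManNAz. Its share ran from 28.2% to 71.0%, while the gene level ran from 3.04 to 4.21 FPKM. The 4 Sox5 transcripts from the upstream start region summed to 3.04 to 4.17 FPKM, and the 3 from the downstream start to at most 0.0579 FPKM. Sox5-214, below the level for testing, stood at 1.00, 1.13 and 1.05 FPKM in untreated cells and 0.303, 0.870 and 0.944 FPKM after Ac4ManNAz, with no overlap. Mitf-204, also below that level, had the opposite order, with 0 to 0.0997 FPKM in untreated cells and 0.107 to 0.121 FPKM after Ac4ManNAz. How often untested transcripts show no overlap was not counted, so neither order is read as a result.

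The share of Tfap2a-201, the most abundant Tfap2a transcript, ran from 43.0% to 49.8% in untreated and from 22.7% to 87.5% in treated libraries. The wider spread lay within the treated group when all transcripts were counted. Tfap2a-202 and Tfap2a-206, at 31.3% and 11.4% of the gene's mean FPKM, were listed at 0 in treated replicate 3. Both drop out of the next count. Counting only transcripts above 0 in all 6 libraries, the share was 84.9% ± 7.4 in untreated and 93.6% ± 5.8 in treated libraries (SD, n = 3 each; exact two-sided permutation p = 0.3), so both the share and its spread depend on which transcripts are counted. Exact two-sided permutation p-values were 0.8 for Sox5-201 and 1.0 for Tfap2a-201, and adjusted over the 5 genes all were between 0.5 and 1.0. Such values also carry the error of dividing fragments among overlapping transcripts, which the table does not give.

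**Figure D4:**
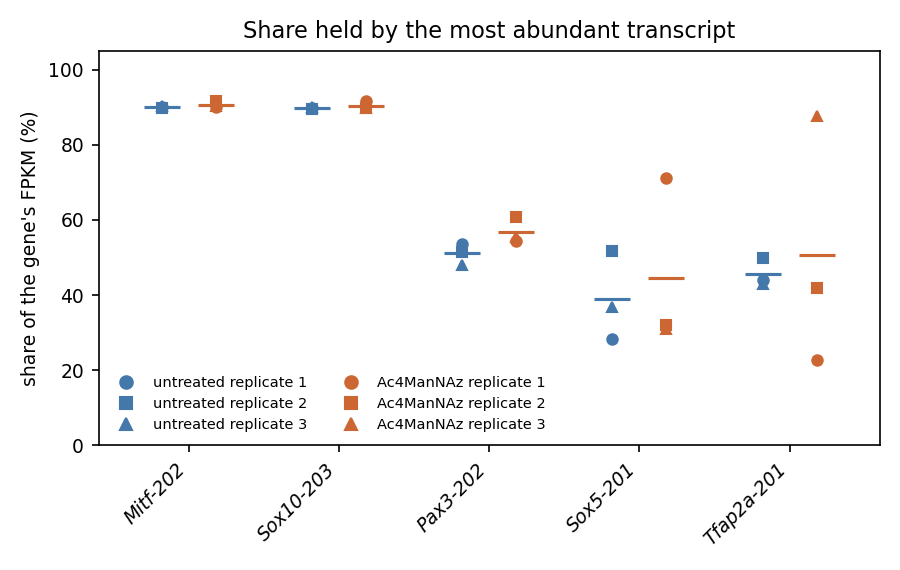
Share of each gene's FPKM held by its most abundant transcript, in percent, for the 5 tested factors with more than 1 transcript; points are libraries and short bars are group means. Mitf-202 and Sox10-203 stay near 90% in all libraries, Pax3-202 is higher in all treated libraries, and Sox5-201 and Tfap2a-201 scatter widely.

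Of the 34 transcripts, 10 had a mean of at least 1 FPKM and 7 were listed at 0 in every library. None of the 10 passed an adjusted p of 0.05, as 0.0606% (9 of 14846) of all tested transcripts did. Of the 10, 5 differences were positive and 5 negative. The 95% interval was within 2-fold for 8 of the 10 and for 67.7% of all tested transcripts.

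Genes that MITF is known to activate were read from the same fit. Of 32 listed targets, 26 were tested, with 12 higher, 14 lower and 0 called, and a median difference of -0.02 on the log2 scale. Tyr, which encodes tyrosinase and limits the rate of melanin synthesis, stood at 198, 164 and 120 FPKM in untreated cells and 172, 176 and 161 FPKM after Ac4ManNAz. Tyrp1, a melanosomal enzyme, had 2470 ± 193 FPKM in untreated cells and 2365 ± 79.2 FPKM after Ac4ManNAz (SD, n = 3 each). Dct, the dopachrome tautomerase, had 519 ± 163 and 537 ± 147 FPKM, and Pmel, which forms the fibrils of the melanosome, had 4312 ± 442 and 4381 ± 535 FPKM. Groups overlapped for all 4.

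Oca2 and Mlana were the targets with the widest spread. Oca2, a melanosomal membrane protein that affects its pH, stood at 18.1, 8.57 and 9.65 FPKM in untreated cells and 12.2, 1.64 and 1.70 FPKM after Ac4ManNAz. Its difference was -1.46 ± 0.64 on the log2 scale (SE, n = 3 and 3; 95% interval -2.96 to 0.04; adjusted p = 0.9998 by limma). Treated replicates 2 and 3 were low and treated replicate 1 lay inside the untreated range. Mlana, a melanosomal membrane protein, stood at 976, 1138 and 856 FPKM in untreated cells and 1269, 158 and 935 FPKM after Ac4ManNAz, with treated replicate 2 alone far below the others. The amino acid transporter gene Slc7a5 differed by -0.16 ± 0.10 on the log2 scale. The CATGTG motif of the Tyr and Tyrp1 windows shown above was found in 11 of the 24 targets with a window (45.8%) and in 15.9% of all 26994 genes with one, a description given with no test.

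The targets of SOX10 and PAX3 were tested for 10 of 17 genes, with 8 higher, 2 lower and 0 called, and a median difference of 0.16 on the log2 scale against -0.00 for all genes. Over all tested genes 49.6% were higher. Mitf itself is on this list, and Tyrp1, Dct and Met are on the list of MITF targets as well. S100b, a calcium-binding protein of glia and melanocytes, stood at 59.9, 38.8 and 36.6 FPKM in untreated cells and 55.7, 70.3 and 63.0 FPKM after Ac4ManNAz. Its difference was 0.50 ± 0.20 on the log2 scale (SE, n = 3 and 3; adjusted p = 0.9998 by limma) and the groups overlapped. The myelin enzyme gene Cnp differed by 0.25 ± 0.19. Without treated replicate 2, 5 of the 10 were higher.

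Inputs to the factors were unevenly present in these cells. Mc1r, the MSH receptor, had a mean level of 62.7 FPKM, whereas Kit and Ednrb, receptors of the melanoblast, had mean levels of 0.0361 and 0.00867 FPKM. Of 26 genes of the MSH, cAMP and KIT inputs, 22 were tested, with 14 higher, 8 lower and 0 called (median difference 0.05 on the log2 scale). Mapk3, which encodes the kinase ERK1, stood at 23.2, 20.9 and 20.1 FPKM in untreated cells and 26.3, 30.1 and 26.0 FPKM after Ac4ManNAz, without overlap. Its difference was 0.34 ± 0.11 on the log2 scale (SE, n = 3 and 3; adjusted p = 0.9998 by limma). The adenylyl cyclase gene Adcy6 differed by 0.25 ± 0.21. The groups did not overlap for 5.8% of all tested genes, and Mapk3 was named for its low unadjusted p.

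Of 22 WNT partners and targets of LEF1, 13 were tested, with 9 higher, 4 lower and 0 called (median difference 0.07). Gsk3b, the kinase that marks beta-catenin for degradation, stood at 2.54, 2.26 and 2.43 FPKM in untreated cells and 4.43, 7.84 and 2.84 FPKM after Ac4ManNAz. Its groups did not overlap, and the difference of 0.74 ± 0.29 on the log2 scale (SE, n = 3 and 3; adjusted p = 0.9998 by limma) did not pass. Pygo2, a beta-catenin cofactor, stood at 2.12, 2.06 and 7.07 FPKM in untreated cells and 1.72, 1.62 and 1.47 FPKM after Ac4ManNAz, with untreated replicate 3 far above the other 5. Its groups did not overlap either, and both genes were named for their low unadjusted p. Over all tested genes the groups did not overlap for 5.8%.

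Of 19 partners and modifiers of MITF, 15 were tested, with 9 higher, 6 lower and 0 called (median difference 0.09). Arid1a, a chromatin remodelling subunit, differed by 0.32 ± 0.32 on the log2 scale. Among the relatives of MITF that can pair with it, Tfeb had a mean level of 6.43 FPKM, Tfe3 1.77 FPKM and Tfec 0.0262 FPKM, and Tfeb differed by 0.25 ± 0.20.

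Of 29 paralogs of the 10 factors, 22 were under 1 FPKM. Of the 7 tested, 4 were higher, 3 lower and 0 called (median difference 0.19). Irf1, a relative of Irf4 that responds to interferon, had 5.72 ± 1.12 FPKM in untreated cells and 4.24 ± 0.64 FPKM after Ac4ManNAz (SD, n = 3 each), and its groups overlapped.

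Genes of the dedifferentiated or invasive melanoma state were tested for 12 of 28, with 7 higher, 5 lower and 0 called (median difference 0.07). Bhlhe40, a helix-loop-helix repressor, stood at 21.7, 18.2 and 15.5 FPKM in untreated cells and 13.8, 13.3 and 14.8 FPKM after Ac4ManNAz, without overlap, and differed by -0.37 ± 0.14 on the log2 scale (SE, n = 3 and 3; adjusted p = 0.9998 by limma). Nr2f1, a nuclear receptor, differed by -0.26 ± 0.14, also without overlap. Both were named for the lowest unadjusted p in the list, and neither passed. Over all tested genes the groups did not overlap for 5.8%. Levels within this list were mixed beside the high Mitf, with 16 of 28 genes under 1 FPKM. Axl, a receptor kinase often high where MITF is low, had a mean level of 2.43 FPKM and Ets1 68.4 FPKM, whereas Egfr, Ngfr and Zeb1 had 0.00952, 0.0537 and 0.0261 FPKM. Zeb2, found in pigmented melanocytes, stood at 36.6 FPKM.

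**Figure D5:**
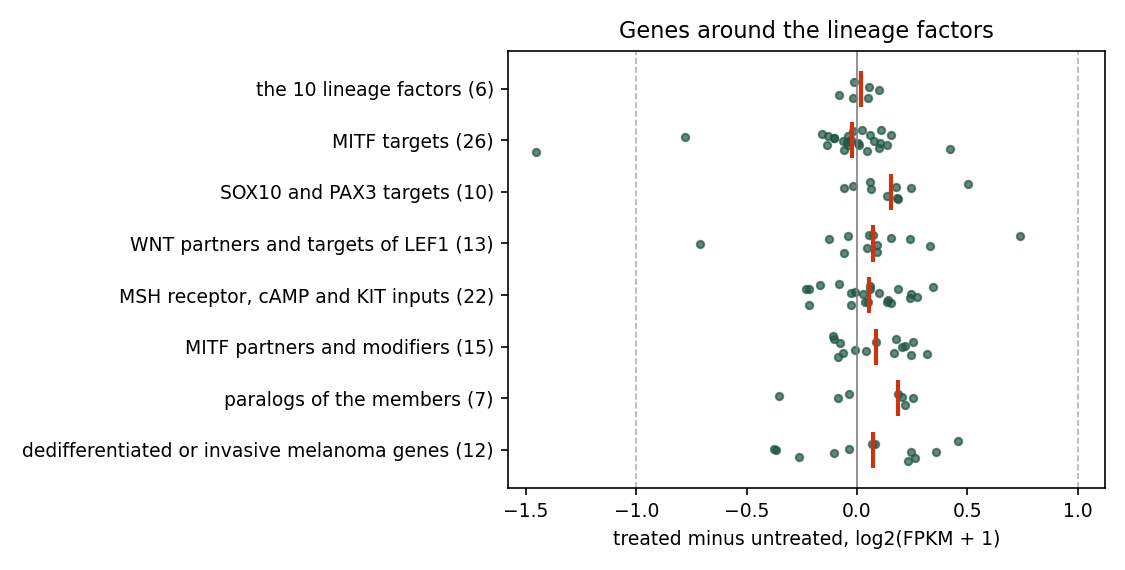
Treated minus untreated difference on the log2(FPKM + 1) scale for the tested genes of each list (number tested in brackets); points are genes, red bars are list medians and dashed lines mark 2-fold. List medians lie between -0.02 and 0.19, and Oca2 is the only listed gene beyond 2-fold.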

How the data were processed

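Total RNA was depleted of rRNA and sequenced from strand-specific libraries, per the labels' protocols. The authors deposited 1 table of FPKM per transcript and library. The sources used here do not give the aligner, quantifier or genome build. Groups and replicate numbers came from the sample titles. Transcripts were summed to genes. Genes and transcripts that averaged 1 FPKM or more over the 6 libraries were tested on log2(FPKM + 1) with limma 3.58.1 in R 4.3.3 (eBayes with trend, two-sided, Benjamini-Hochberg adjustment over all 9925 genes or 14846 transcripts, threshold 0.05). A fold change on this scale understates the change of low genes. Tables were made in Python 3.11.15 with pandas 2.3.3 and figures with matplotlib 3.10.9.

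All 34 transcripts were found in GENCODE M21 with the same span and were read there for exons. Over the whole table, 2.17% of shared transcripts start at the same position in M21, so deposited coordinates are of another build. Promoter windows are RefSeq's, GRCm38.p6; Sox10, Pax3, Sox9, Pmel and Mlana were not matched.

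The table holds no counts. Low values implied 29900000 to 45500000 fragments per library, but 31.7% to 52.8% of them lay within 2% of whole multiples, so counts could not be rebuilt and values carry no counting interval.

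The 10 factors and the gene lists were chosen with earlier results of these data known. Named were all 10 factors, their transcripts at that level, the 2 genes of lowest unadjusted p in each list, and Tyr, Tyrp1, Dct, Pmel and Mlana. Other genes were named after their values were seen. Single values of some marker genes are not reported here. Alternatives were another pseudocount (0.1), no filter or a mean of at least 5 FPKM, median-ratio scaling, quantile normalization, eBayes without trend, sample quality weights, a replicate block, the most abundant transcript per gene, transcripts above 0 in all libraries, and each library left out.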

Additional observations from a re-analysis of the deposited data

How the results depend on the processing

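None of the 6 tested factors passed under any of the 15 alternatives on genes, and none of their 10 tested transcripts under the 14 on transcripts, as far as each was kept: Sox5, Tfap2a, Mitf-207 and Sox5-201 fell below the stricter filter, and Tfap2a below 1 FPKM by its most abundant transcript. Sox9, Pou3f2, Irf4 and Lef1 were fitted only without a filter and did not pass. The lowest adjusted p by limma was 0.178 for a gene and 0.620 for a transcript, and no gene difference exceeded 0.30 in size. Differences this close to 0 changed sign in 18 of 87 gene values and 21 of 138 transcript values, and the cause was not tested. With quantile normalization the log2 difference was 0.0203 for Mitf, 0.0218 for Sox10, -0.0041 for Sox5, 0.0127 for Mitf-202 and 0.0422 for Sox10-203. With sample quality weights it was 0.0285 for Mitf, 0.0374 for Sox10, -0.0296 for Sox5-201, 0.0375 for Mitf-202 and 0.0264 for Sox10-203. It was 0.0037 for Sox10-203 with median-ratio scaling and 0.065 for Pax3 from the most abundant transcript. Scaling moved the median of all genes by less than 0.1.

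Leaving out each library in turn gave -0.17 to 0.18 for Mitf, -0.18 to 0.0675 for Pax3, -0.0589 to 0.0465 for Sox10, -0.0661 to 0.26 for Sox4 and its transcript Sox4-201, -0.0328 to 0.15 for Sox5 and -0.0782 to 0.30 for Tfap2a. For transcripts it gave -0.0602 to 0.10 for Mitf-201, -0.15 to 0.19 for Mitf-202, -0.0699 to 0.24 for Pax3-202, -0.17 to 0.024 for Sox10-202, -0.048 to 0.0459 for Sox10-203 and -0.0666 to 0.24 for Sox5-201. Without a change of sign it gave 0.37 (without treated replicate 3) to 0.95 (without treated replicate 1) for Mitf-207, -0.65 (without untreated replicate 3) to -0.22 (without untreated replicate 1) for Mitf-208 and -0.30 to -0.14 (without untreated replicate 1) for Pax3-201. The difference in the share of the most abundant transcript ranged from -0.0281 to 0.97 percentage points for Sox10, -7.51 to 12.6 for Sox5, -13.3 to 19.1 for Tfap2a, 0.16 (without treated replicate 2) to 1.02 for Mitf and 3.77 (without treated replicate 2) to 7.04 for Pax3.

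Over the whole table the count of genes called, 0, became 4 from the most abundant transcript and 2 with sample quality weights, and ranged from 0 to 1 with a library left out (1 without treated replicate 2). The count of transcripts called, 9, became 15 without trend, 2 with the stricter filter and 19 with sample quality weights, and ranged from 4 (without treated replicate 2) to 16 (without untreated replicate 2), with 5 without untreated replicate 3. The number of higher genes in a list moved by over 1.5 times in 7 values over all lists and alternatives, and no listed gene was called in any.

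With the replicate number as a block, 1 transcript and 0 genes were called over the whole table, and no factor. The labels do not state that the numbers pair the samples, so they were not taken to do so. Deviations of same-numbered libraries correlated at 0.06, 0.02 and 0.26, against -0.17 to 0.08 for libraries of unlike number. Whether the numbers pair the samples was not tested.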
